A study of Caenorhabditis elegans with 2 samples.

Results

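The histone genes of Caenorhabditis elegans were taken as the protein-coding genes whose symbol begins with his-, which gave 72 of 19973 protein-coding genes in the Ensembl release 115 models of assembly WBcel235, the same sequence as ce11. The choice used the name alone and no measured value. By their RefSeq products, 17 encode histone H2A, 16 H2B, 15 H3, 16 H4 and 5 the replacement histone H3.3. The gene his-24 encodes a linker histone H1, and his-39 and his-73 are short models with a histone domain. Ensembl gives 22 of the 72 genes another symbol than RefSeq, and only 50 distinct symbols in all, so the RefSeq symbol was matched to each gene through its WormBase identifier.

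The data are anti-GFP chromatin immunoprecipitation sequencing (ChIP-seq) from whole L2 larvae of strain OP207, harvested at 28.5 hours after synchronisation from starved L1 larvae. The strain carries, on a fosmid with an unc-119 marker, a fusion of ztf-1, a zinc finger gene, with 2XTY1-eGFP-3XFLAG, so the tagged protein is a transgene product. There was 1 group with 2 biological replicates, and a control experiment that the labels name was not analysed here. Whole animals were used, so strong occupancy in few cells and weak occupancy in many cells cannot be told apart, and no comparison between conditions was possible.

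Core histones form the octamer around which DNA is wrapped, and H1 binds the linker between nucleosomes. Replication-dependent histone genes are transcribed in S phase to package new DNA, lie in clusters of near-identical copies that are often divergently transcribed, have no introns, and end their messages in a conserved hairpin in place of a poly(A) tail. Replacement variants such as H3.3 are made outside S phase as well, from genes with introns and polyadenylated messages. ZTF-1 is known here only as the tagged protein.

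Peaks were read from 8 lists made with the irreproducible discovery rate (IDR), which grades peaks by how alike their ranks are in a pair of lists. The list that the authors named conservative is read here as the comparison of replicate 1 with replicate 2 and is called replicate-compared. The pooled list is the other list of the whole series, and each replicate has its own. Each exists as a ranked list with all compared peaks and as a thresholded list with those of IDR 0.01 or less. The signal of a peak is the authors' own value, with no stated unit, and serves here to describe and rank peaks within a list. A gene was assigned the peaks that overlapped it or the 1 kb on either side by 1 bp or more, and its value is the highest signal among them. No file gives read counts, so depth and the precision of a single signal are unknown.

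A smaller share of histone genes than of all genes had a ranked peak. In the replicate-compared ranked list, 41 of the 72 had a peak (56.9%, exact 95% interval 44.7 to 68.6%), against 93.7% of all protein-coding genes. The pooled ranked list gave 41 as well, against 94.8%. In replicate 1 alone 23 had a peak, against 73% of all genes, and in replicate 2 alone 22, against 65.7%. Histone genes are short, with a median length of 384 bp against 2027 bp, which gives them smaller windows. With windows of equal length, 1 kb either side of the gene start, 37 had a peak (51.4%), against 82.8% of all genes. The intervals cover counting error only, and genes that share a peak are not independent.

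The highest signal near a histone gene was mostly below that of genes at large. The 41 genes had a median highest signal of 30.3 (range 9.53 to 96.5), against 43.7 for all genes with a peak, and 11 of the 41 lay above that value. In windows of equal length the medians were 28.5 and 36.3. The 67 distinct ranked peaks near histone genes had q-values from 0.305 to 0.956 and none at 0.05 or less, against 0.031% of all 87133 ranked peaks. Their median signal of 22.2 was close to the 23.2 of all ranked peaks. An IDR of 0.05 or less was held by 5 of the 67 (7.46%), against 1.23% of all ranked peaks. Of these 5 peaks 3 were at his-72 and 2 at his-24, so they came from 2 of the 72 genes, against 5.69% of all genes with such a peak.

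A thresholded peak was found at his-72 alone. It was in the replicate-compared thresholded list, with 1 of 72 histone genes against 1.43% of all genes, and in the pooled thresholded list, with 1 of 72 against 1.06%. The thresholded list of replicate 1 held 0 of 72, against 0.13% of all genes, and that of replicate 2 held 0 of 72, against 0.135%. These counts are near the background shares, so they show nothing particular to histone genes as a set.

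The gene his-72 encodes an H3.3 and stands by itself at chrIII:12367475-12369050 on the minus strand, 101 bp from Y75B8A.33 and 1405 bp from rpt-6, which encodes a subunit of the proteasome. Its highest signal, 96.5, placed it at rank 193 of the 18718 genes with a peak in the replicate-compared ranked list. That peak has its summit at position 12367820, inside the gene and 1230 bp past the start of the longest transcript, in the intron just before the last coding exon. It had an IDR of 0.00929 and a q-value of 0.305. The closest peaks in the single replicates had signals of 42.6 in replicate 1 and 47.3 in replicate 2, so both replicates had a peak inside the gene.

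A further peak lay at the start of his-72, with a signal of 81.0 at a summit 34 bp upstream of the longest transcript. Its IDR of 0.0221 put it outside the threshold. Replicate 1 had its highest his-72 peak there, at 55.8, while replicate 2 had 38.3 at 168 bp downstream of the start and 29.6 at 34 bp upstream. The order of the start and the interior peak was thus opposite in the replicates. At the other end of the gene, a peak of 56.4 between his-72 and Y75B8A.33 had an IDR of 0.0495 in the replicate-compared list and was the peak that the pooled thresholded list held. The fourth his-72 peak, 233 bp upstream, had a signal of 39.8.

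**Figure D1:**
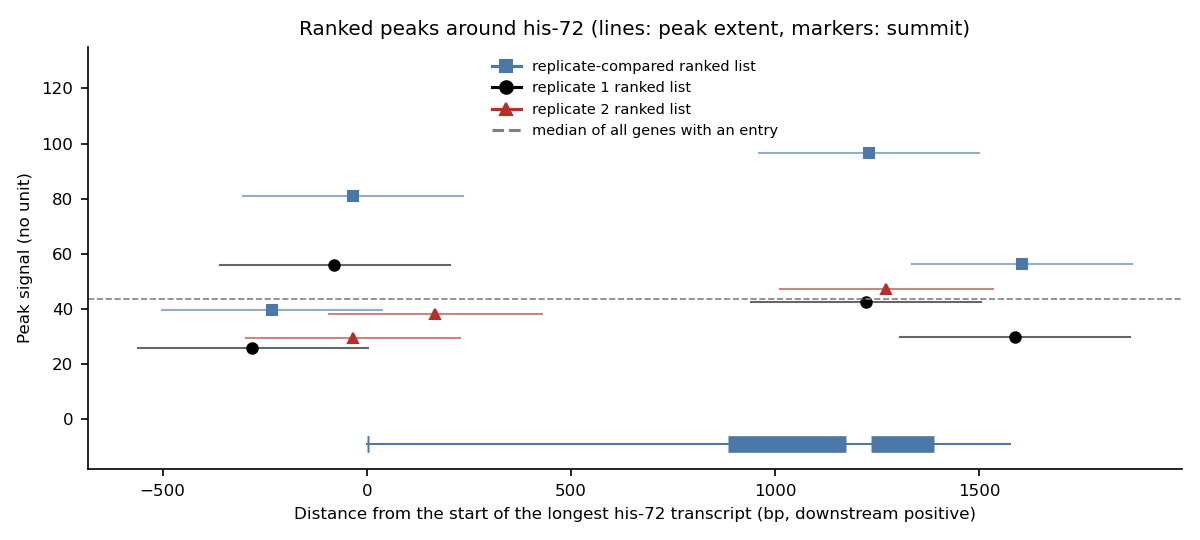
Signal of the ranked peaks around his-72 (vertical axis, no unit) against distance from the start of the longest transcript in bp, with downstream to the right. Horizontal lines give each peak's extent, markers its summit, thick bars the coding exons of the longest transcript, and the dashed line the median of 43.7 over all genes with a peak. Peaks of both replicates lie near the start and near the last intron, and the replicate-compared peaks of 81.0 and 96.5 stand there.

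The bases around both his-72 summits are shown because they are the strongest positions at any histone gene. They are from the RefSeq sequence of WBcel235, on the minus strand, from chrIII:12367780-12367860 and chrIII:12369044-12369124, with coding bases in capitals.
his-72 interior summit: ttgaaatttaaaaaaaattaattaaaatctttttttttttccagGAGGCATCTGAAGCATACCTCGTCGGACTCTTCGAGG
his-72 upstream summit: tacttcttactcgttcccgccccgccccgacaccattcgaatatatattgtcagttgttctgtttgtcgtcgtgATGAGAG
The interior summit sits at the end of a T-rich intron, where the last coding exon begins. The upstream summit lies ahead of the first coding bases of the longest transcript, in a stretch with runs of C.

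The remaining H3.3 genes had a peak in the replicate-compared ranked list too, 5 of 5 with his-72, as did 93.7% of all genes, and their signals were lower than that of his-72. The gene his-74 had 40, with its summit 853 bp past the start and inside the neighbouring gene ccch-3, which lies 16 bp from his-74. Replicate 1 had 24.1 there and replicate 2 had no peak near his-74. A nearly equal peak of 37.8 had its summit inside his-74 itself, 452 bp past the start, and replicate 1 had 19.7 at 549 bp. The neighbours his-69 and his-70 shared a peak of 30.3 inside the coding sequence of his-69, and neither replicate's own list had a peak near them. In the pooled ranked list the highest signal was 10.7 at his-69 and 28.5 at his-70. The X-linked his-71 had 23.6, with its summit 1921 bp past the start and inside the neighbouring gene F45E1.5. The highest peak with its summit in his-71 itself had 20.4. Replicate 1 had 19.2 at 626 bp past the start, and replicate 2 had 16.2 at 1493 bp, inside F45E1.5. Of these 4 genes none reached the median of 43.7.

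The linker histone gene his-24, on chromosome X, had the next highest value after his-72. Its signal of 76.7 ranked 861 among the 18718 genes and had its summit in the intron, 354 bp past the start, with an IDR of 0.0379 and a q-value of 0.697. A peak of 50.1 stood 39 bp past the start, with an IDR of 0.0378. Replicate 1 had 50.4 inside the gene and replicate 2 had 27.8, so his-24 was above the median of its list (29.2 and 24.7 over all genes) in each replicate.

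The gene his-35, which encodes an H2A, his-41, which encodes an H2B, and his-37, which encodes an H4, lie together on chromosome V without the hairpin. The pair his-35 and his-41 shared a highest peak of 30.1, and his-37 had 35.3. In replicate 1 all 3 had 32.6, from a shared peak, and in replicate 2 his-35 had 19.4 while his-41 and his-37 had 32.4. Their windows held 9 ranked peaks, which covered 70.6% of the sequence. A peak was near 3 of 3 genes, against 93.7% of all genes. The short model his-73 had 27.7, from a peak 1004 bp upstream. Replicate 1 had 13.7 at 985 bp upstream, and replicate 2 had 21.8 at another summit, 601 bp upstream.

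**Figure D2:**
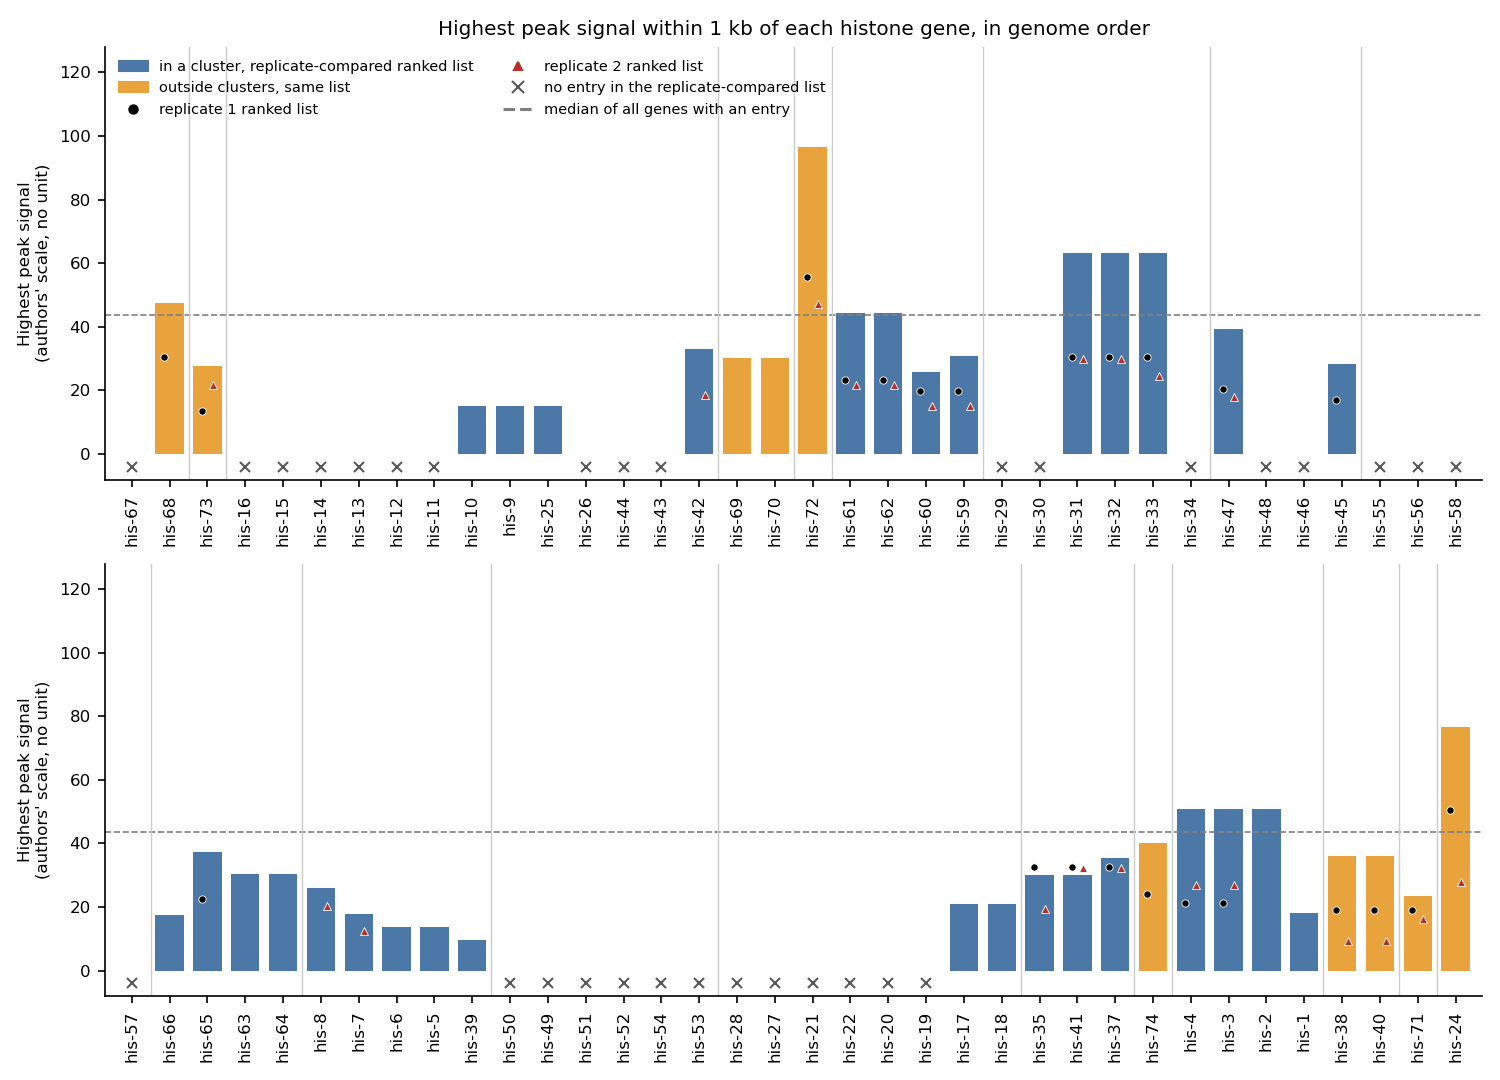
Highest peak signal (vertical axis, no unit) within 1 kb of each of the 72 histone genes in genome order, with vertical lines between groups of neighbouring genes. Bars give the replicate-compared ranked list, blue in clusters and orange outside, circles and triangles the lists of replicates 1 and 2, crosses a gene with no peak in the replicate-compared list, and the dashed line the median of 43.7 over all genes. The bars of his-72 (96.5) and his-24 (76.7) are the tallest, and 31 genes have a cross.

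The hairpin of the replication-dependent messages was searched for, to separate these genes from the variants by sequence. It was taken as a stem of 6 bases and a loop of 4, within 160 bases after the last coding base and with at most 2 mismatches to the commonest form. It followed 63 of the 72 histone genes and 0 of the 19901 other protein-coding genes, 0.315% of all genes. Its first base lay 34 to 61 bases after the last coding base. The 9 histone genes without it were his-24, his-35, his-37, his-41, his-57, his-70, his-71, his-72 and his-74. Of these, his-57 has a 3-exon model whose coding sequence runs on, so the search began at another place than in its neighbours. The forms are shown with 6 flanking bases and the hairpin in capitals, from the RefSeq sequence of WBcel235 on the plus strand for his-32 (chrIV:8334762-8334789) and his-52 (chrV:8850866-8850893) and on the minus strand for his-69 (chrIII:4058308-4058335).
his-32, the commonest form: cccaacGGCCCTCTTTAGGGCCacaact
his-52, with its loop changed: cccaacGGCCCTCTTAAGGGCCacaaat
his-69, with its stem changed: cccaacGGCCCTCTTTAAGGCCacaagt
The commonest form stood after 52 of the 63 genes. The form of his-52 stood also after his-54, his-22 and his-20, all H2B genes. The H3.3 gene his-69 carried the hairpin with 1 mismatch.

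Ranked peaks were next counted by class of gene, to be read against the 93.7% of all genes with a peak. With the hairpin, 33 of 63 had a peak (52.4%, interval 39.4 to 65.1%) at a median of 30.3, and without the hairpin 8 of 9 had a peak (88.9%, 51.8 to 99.7%) at a median of 32.8. The exception was his-57. Grouped by position, 31 of the 61 genes in clusters, that is at least 3 histone genes with gaps of at most 5 kb, had a peak (50.8%, 37.7 to 63.9%). Of the 11 genes outside clusters 10 had a peak (90.9%, 58.7 to 99.8%), at a median of 35.9 against 30.1 in clusters. The difference between the groups was not tested, because neighbouring genes share peaks and sequence. By histone type, a peak was near 11 of 15 H3 genes, 9 of 16 H4 genes, 8 of 17 H2A genes and 5 of 16 H2B genes. The shares without the hairpin and outside clusters lie near that of all genes, and the other shares lie below it.

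Within the clusters, the highest value was at the divergent H4 and H3 genes his-31 and his-32 on chromosome IV. A peak of 63.1, with its summit at 8334089 between their starts, was also the only peak near his-33, an H2A gene. It had an IDR of 0.172 and a q-value of 0.859, and it ranked 2656 among all genes. Between the starts replicate 1 had 30.5 and replicate 2 had 24.6. Replicate 2 had a higher peak, of 30, with its summit inside his-31. Their cluster neighbours his-29, his-30 and his-34 had no ranked peak. On chromosome V, the divergent his-4 (H2B) and his-3 (H2A) shared a peak of 50.9 with summit 16040604 between their starts, which also lay within 1 kb of his-2. Replicate 1 had 21.3 and replicate 2 had 26.9 there, and his-1 had 18.2. The divergent his-61 (H2A) and his-62 (H2B) on chromosome IV had 44.4, with 23.2 in replicate 1 and 21.8 in replicate 2.

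The promoters between divergent histone genes are shown for the pairs with the strongest such peaks, and for a duplicated pair with none. The bases are from the RefSeq sequence of WBcel235, plus strand, at chrIV:8334029-8334149, chrV:16040544-16040664, chrV:8847763-8847883 and chrV:8889858-8889978. Capitals mark TATAAA on either strand and the 8-base word GGACACAT.
his-31/his-32, peak of 63.1: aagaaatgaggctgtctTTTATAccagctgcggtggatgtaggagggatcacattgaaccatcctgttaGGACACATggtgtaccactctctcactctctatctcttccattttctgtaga
his-4/his-3, peak of 50.9: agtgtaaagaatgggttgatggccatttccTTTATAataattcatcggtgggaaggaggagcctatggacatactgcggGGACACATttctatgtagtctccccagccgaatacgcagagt
his-50/his-49, no peak: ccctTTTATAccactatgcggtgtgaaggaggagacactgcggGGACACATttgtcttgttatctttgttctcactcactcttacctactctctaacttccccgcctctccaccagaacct
his-28/his-27, no peak: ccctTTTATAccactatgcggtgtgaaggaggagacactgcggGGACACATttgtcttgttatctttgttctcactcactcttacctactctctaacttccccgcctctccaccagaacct
The sequences of his-50/his-49 and his-28/his-27 are identical, so a read from within them matches both places. GGACACAT was picked because all 4 hold it, after they had been read. On either strand it occurred in 20 of the 31 promoters between divergent histone genes, and in the 250 bp upstream of 58.3% of histone genes against 0.686% of all genes (42 of the 137 genes that had it). Many of these promoters are copies of each other: the 20 have 13 distinct sequences. TATAAA occurred in 24 of the 31, and upstream of 65.3% of histone genes against 35.2% of all genes. Both words stood in promoters with and without a peak. A summit lay in 4 of the 20 promoters with GGACACAT and in 3 of the 11 without it. Of the 95 other genes with GGACACAT upstream, 94.7% had a ranked peak, at a median signal of 42.5, close to that of all genes.

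The 31 histone genes without a peak in the replicate-compared ranked list were 30 cluster genes and his-67. The cluster of 13 genes on chromosome II had 9 of them, his-16 to his-11, his-26, his-44 and his-43. The chromosome V clusters of his-50 to his-53 and of his-28 to his-18 had 6 each. On chromosome IV the cluster of his-55 to his-58 had 4, that of his-29 to his-34 had 3 and that of his-47 to his-45 had 2. The clusters of his-61 to his-59, of his-66 to his-64 and of his-4 to his-1 had a peak at 4 of 4 genes. That of his-8 to his-39 had a peak at 5 of 5. These full counts are near the 93.7% of all genes with a peak. The signals in the cluster of his-8 to his-39 ran from 9.53 to 26.1, below the median of all genes at each of its genes. Of all 72 genes, 28 had no peak in any of the 4 ranked lists (38.9%), against 3.35% of all protein-coding genes.

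The longest gap at histone genes was in the duplicated region of chromosome V. The clusters starting at his-50 and at his-28 are 42095 bp apart, and a run of 15287 bases is identical between them. All 6661 bases from the start of his-50 to the end of his-53 recur in the other copy. No ranked peak lay between positions 8813158 and 8898960 of chromosome V, a stretch of 85.8 kb with 14 histone genes among 26 protein-coding genes. It was the second longest of 43354 peak-free stretches in the genome, and 0.665% of its 31-base words were unique. The first peak beyond it, with a signal of 21.0, lay in the unique sequence that follows and was the only peak within 1 kb of his-17 (H3) and his-18 (H4).

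**Figure D3:**
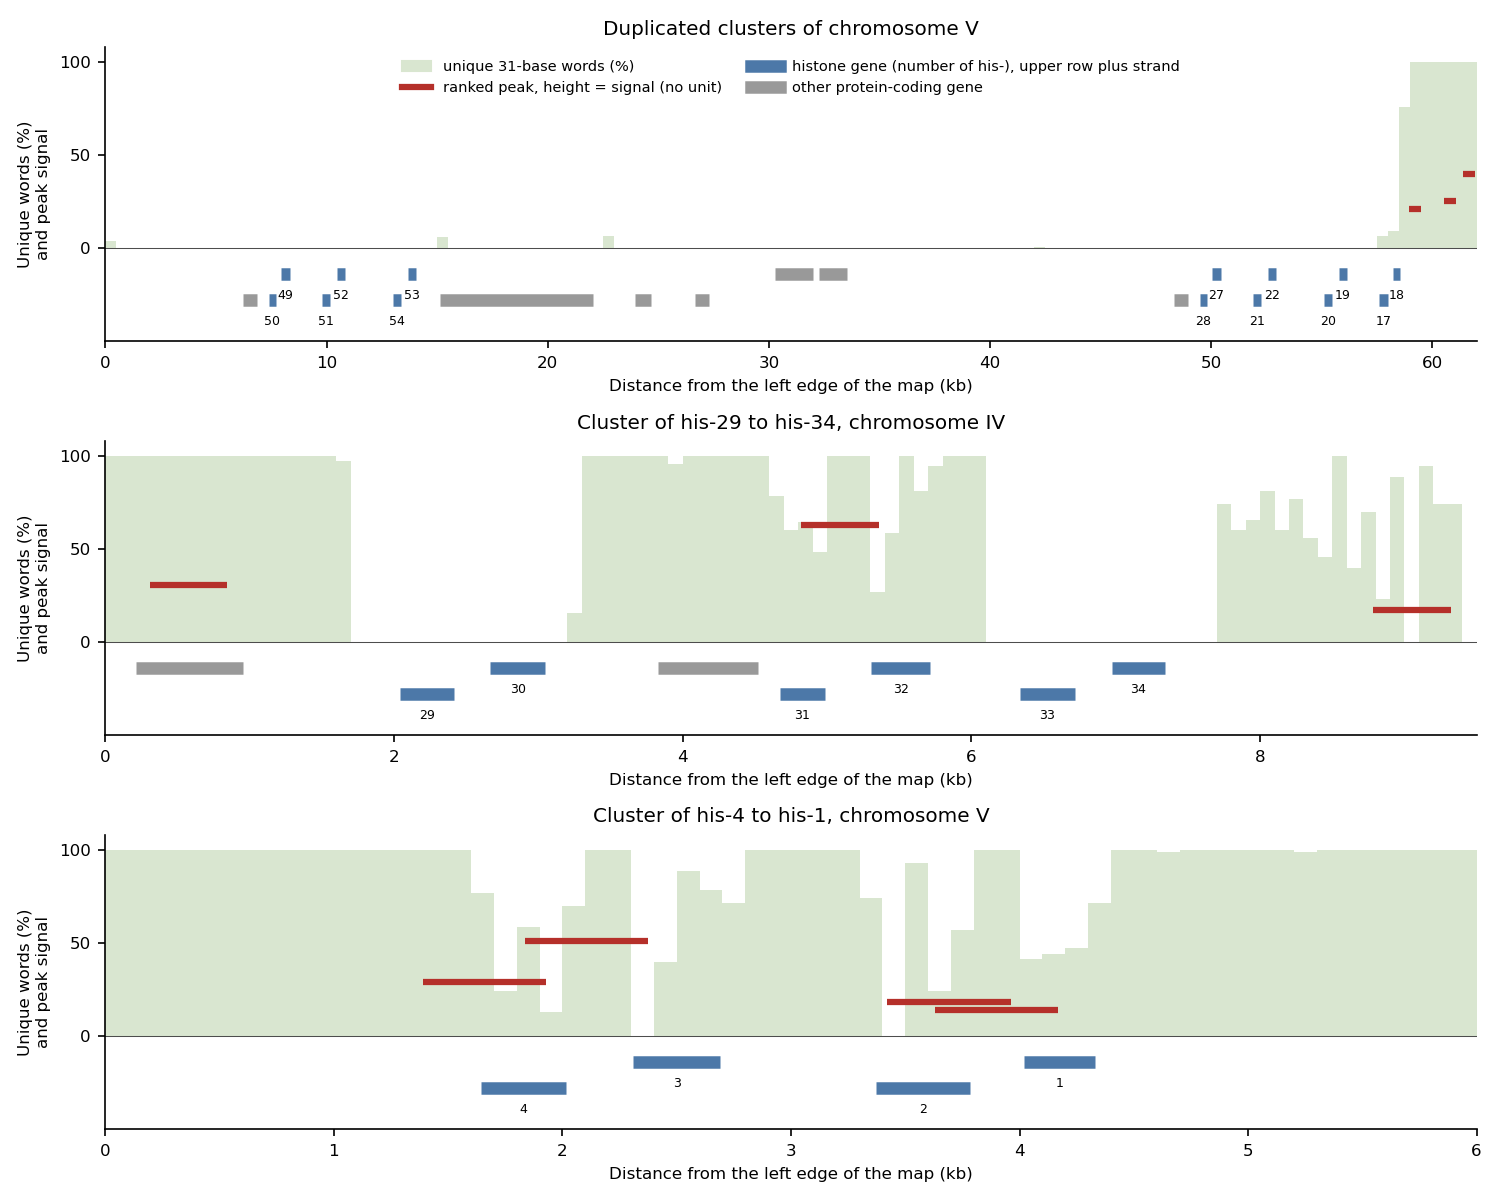
Share of 31-base words found once in the genome (green, %) and ranked peaks (red bars, height is signal with no unit) along 3 stretches with histone clusters, against distance from the left edge of each map in kb. Blue boxes are histone genes and grey boxes other protein-coding genes, with the upper row on the plus strand. Peaks lie in the divergent promoters of his-31/his-32 and his-4/his-3, where words are unique, and none lies in the duplicated stretch. In the maps of his-29 to his-34 and of his-4 to his-1, peaks also extend over repeated words.

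Sequence uniqueness was measured at every gene, as the share of 31-base words in the gene and 1 kb on either side that occur once in the genome on either strand. The median share was 40.4% at histone genes and 98.9% at all genes. At histone genes without a ranked peak it was 1.32% (range 0.0 to 91.3%), and at those with a peak 77.8% (8.81 to 99.9%). The 91.3% belongs to his-67, an H4 gene, whose divergent partner his-68, an H2A gene, had 47.6 from a peak 1443 bp past its start, within alg-5. Replicate 1 had 30.4 at his-68 and replicate 2 none. Of the 36 histone genes whose coding sequence has an identical copy among them, 8 had a ranked peak. Of the 36 others 33 did, a share near the 93.7% of all genes.

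The same shares were read at other genes with equally repeated sequence. Where under 25% of words were unique, 5 of 30 histone genes (16.7%) and 46 of 237 other genes (19.4%) had a ranked peak. From 25 to 50% the shares were 63.6% of 11 and 79.9% of 219, and from 50 to 75% they were 87.5% of 8 and 91.9% of 819. From 75 to 95% they were 93.8% of 16 and 93.6% of 4670, and above that 7 of 7 and 95.5% of 13956. Of the cluster genes with at least 75% unique words, 12 of 12 had a peak. The median signal of those with a peak was 15 at histone genes and 23.9 at other genes under 25% unique words. From 25 to 50% it was the higher at histone genes, 33.2 against 27.8. From 50 to 75% it was 26.1 against 35, from 75 to 95% 35.9 against 43.6, and above 95% 30.3 against 44.4. In windows of equal length, 1 kb either side of the gene start, it was lower at histone genes in every bin. From 25 to 50% unique words it was 19.3 against 21.2. In these windows the shares with a peak were 12.5% and 10.1% under 25%, and 44.4% and 69.7% from 25 to 50%. In the bins above they were 100%, 86.7% and 100% of histone genes, against 78%, 83.8% and 84.5% of others. Whether reads with several possible positions were kept, and at what read length, is not given in the sources used here, and their part in these counts was not tested. A gene without a listed peak is not shown to lack binding.

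**Figure D4:**
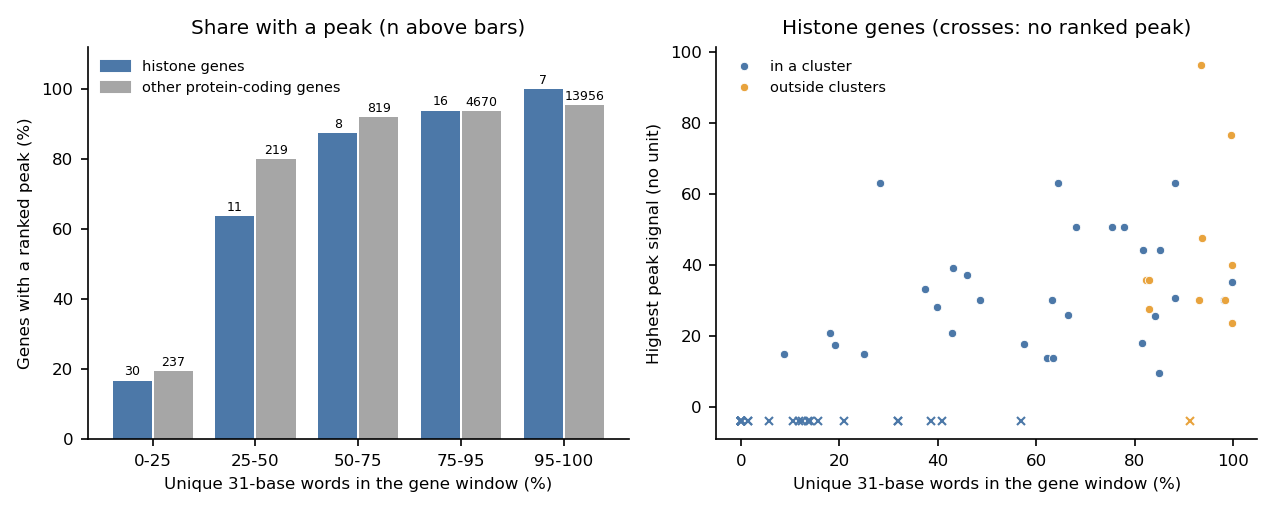
Left, share of genes with a ranked peak (%) by the share of unique 31-base words in the gene window (%), for histone genes (blue) and other protein-coding genes (grey), with the number of genes above each bar. Right, highest signal of each histone gene (no unit) against the same share, with crosses for genes without a ranked peak. The shares rise from 16.7% and 19.4% in the lowest bin to 7 of 7 and 95.5% in the highest.

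Coverage by position gave the same split. Ranked peaks covered 21.7% of the 80.2 kb of clusters with 1 kb on either side, against 36.4% of the genome. Of the unique positions they covered 39.5% in the clusters and 38.1% in the genome, and of the repeated positions 8.45% and 19.5%. In the cluster of his-8 to his-39, 55.2% of positions under peaks were unique, against 81.8% outside them. These shares were 63.4% and 89.7% at his-4 to his-1, and 84.3% and 89.5% at his-61 to his-59. In the other clusters with a peak, the share was higher under peaks than outside. Of the 31 promoters between divergent histone genes, 17 held no unique word and a further 3 at most 13.6%, and none of these 20 overlapped a ranked peak. Of the 11 with 75% or more unique words, 9 overlapped a ranked peak and 7 held its summit. The exceptions were his-67/his-68 and his-63/his-64. Across the 67 peaks near histone genes, 8 summits lay between divergent starts, 19 inside a histone gene, 17 inside another protein-coding gene and 23 elsewhere. Summit places were not counted over all ranked peaks, so these counts cannot be read as particular to histone genes.

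A peak in the ranked lists of both replicates was found at 19 histone genes (26.4%), against 54.2% of all genes. A further 4 had a peak in replicate 1 only (5.56%, against 18.7%), 3 in replicate 2 only (4.17%, against 11.5%) and 46 in neither (63.9%, against 15.5%). Of the 41 genes with a peak in the replicate-compared ranked list, 15 had none in either replicate's own list, among them his-69, his-70, his-2, his-63 and his-64. At his-2 this reflects the window edge for its highest peak, the 50.9 shared with his-4 and his-3. Both replicates had that peak, at 21.3 and 26.9, but theirs ended just outside the his-2 window. These 15 are 20.8% of histone genes, against 10.8% of all genes. Among genes with a peak in the replicate-compared ranked list, they are 15 of 41, against 2152 of 18718 over all genes. Signal in the list of replicate 1 was the higher at 16 of the 19 genes, but the lists were ranked separately, and over all genes with a peak the medians were 29.2 and 24.7.

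Genes for other histones and for histone supply were compared next. All 24 genes of a list of linker histones, H2A.Z, centromeric H3 and histone-handling proteins had a ranked peak, against 93.7% of all genes, and 13 of 24 lay above the median of 43.7. Their own median was 45.1 (21.5 to 84.2), and 0 of 24 had a thresholded peak, against 1.43%. The highest was lin-53, which encodes a histone-binding protein of chromatin assembly complexes, at 84.2, followed by chaf-2, a subunit of chromatin assembly factor 1, at 74.5, and hira-1, the H3.3 chaperone HIRA, at 68. The gene for the hairpin-binding protein, cdl-1, had 44.7, and htz-1, which encodes H2A.Z, had 53.8. The 8 linker histone genes named hil- ran from 21.5 to 54.8, all below his-24.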

How the data were processed

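The authors deposited 8 peak lists on assembly ce11, per the file headers and the labels. The sources used here do not give the peak caller, aligner, read length or control handling. The deposited signal of each peak is the authors' own value with no stated unit, and the −log10 q-value and −log10 IDR in the deposited lists were turned into q-values and IDR values. Each thresholded list of the whole series was matched to the ranked list whose entries of IDR 0.01 or less it holds. Scripts in Python 3.11.15 with numpy 2.4.6 and scipy 1.17.1 counted peaks within 1 kb of each gene and found unique words of 31 bases, with words of 50 bases as an alternative; they were tested on simulated data. Shares carry exact 95% Clopper-Pearson intervals. No test across genes was run, since there was 1 group and genes are not replicates. The histone genes, the gene lists and the alternatives were chosen with earlier results of these data known. Named were the variant genes, every gene at a thresholded peak and the 5 highest, while genes without a peak were named by cluster. The 8-base word, the counts by hairpin and the counts at mostly unique windows were chosen after seeing the data. Columns of other per-sample values in the lists were not used.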

Additional observations from a re-analysis of the deposited data

How the results depend on the processing

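The count of 41 histone genes with a ranked peak stayed within 1.5 times under every distance and overlap tried (28 to 55) and in the pooled list (41), but fell to 22 and 23 when 1 replicate was left out, which leaves the list of the other. All-gene shares moved in the same direction, from 93.7% to 65.7% and 73%. The count of 1 gene with a thresholded peak fell to 0 when either replicate was left out, to 0 at an IDR of 0.001 (0.3% of all genes), to 0 at a q-value of 0.05 (0.21%), and was 2 at an IDR of 0.05, his-72 and his-24, against 5.69% of all genes. The median signal of 30.3 ranged from 21.8 to 23.2 with a replicate left out, and was 28.6 for peaks that overlap the gene, 35.3 within 2 kb, 28.5 around the gene start and 21.0 with the median of each gene's peaks in place of the highest. It was below that of all genes under every alternative. The cluster share of 50.8% was 32.8% for peaks that overlap the gene, 72.1% within 2 kb, 24.6 to 26.2% with a replicate left out, and 100% of the 12 cluster genes with at least 75% unique words. The share of 90.9% outside clusters was 100% within 2 kb, 100% for the 5 genes left when pairs count as clusters, and 54.5 to 72.7% when 1 replicate was omitted. The median unique share was 42.0% with words of 50 bases. The cause of these shifts was not tested. No paired analysis was possible because there was 1 group and no test. Depth is unknown, so weak peaks cannot be graded by precision.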

Other observations

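The replicate-compared and pooled ranked lists both gave 41 histone genes, but not the same genes. The H2A and H2B genes his-16 and his-15, with a peak of 17.5, and the H4 gene his-46, at 2.45, had a peak in the pooled list only. The short model his-39, at 9.53, and the H3 and H4 genes his-17 and his-18, at 21.0, had it in the replicate-compared list only. All of these signals lie below the median of 43.7 over all genes with a peak.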
